A study of Homo sapiens with 6 samples.

Results

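Regions bound by estrogen receptor alpha (ERα) that were listed without estradiol (E2) and in no library with E2 are described here. Peaks of 6 lists on chromosomes 1 to 22 were merged wherever they overlapped by at least 1 bp, which gave 169433 regions. A region was taken when a peak lay in it in 2 or 3 of the 3 lists made without E2 and in none of the 3 lists made with E2. The rule gave 3888 regions, 2.29% of all merged regions. The lists themselves chose these regions, so their number and their peak values are a description with no test.

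The cells were MDA-MB-453, an established human breast cancer line that makes no functional ERα of its own and expresses the androgen receptor. Each of 3 derived lines carried an ERα gene switched on by doxycycline: wild-type receptor (WT), the Y537S mutant, whose substitution in the ligand-binding domain makes it active without hormone, or the K303R mutant, changed in the hinge. All 6 libraries came from cells given 2 µg/mL doxycycline for 2 days, the groups named Dox without E2 and the groups named DoxE2 with 1 nM E2 as well, and there was 1 library per group. The medium held bovine serum that is not described as stripped of hormone, so Dox means without added E2, and cells without doxycycline were not analysed here.

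ERα is a hormone-activated transcription factor. With estradiol in its pocket it binds estrogen response elements, a pair of AGGTCA arms in opposite directions, mostly at enhancers far from genes, and recruits coactivators. It can also be found at gene starts, either on single arms or held there by other factors such as Sp1 on GC boxes. Some genes are lowered by estrogen in breast cancer cells, among them CCNG2, which encodes cyclin G2.

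The regions found only without E2 lay at gene starts more often than other regions, so the reference sequence just before 5 such starts is shown. Each is the 250 bases before an annotated start, from the promoter table of RefSeq (build GRCh38.p14), 5′ to 3′ on the strand of the gene. Capitals mark some of the searched motifs on either strand, and others, such as the E-box (CANNTG), are left in lower case. The marked ones are the GC box (GGGCGG), the CCAAT box, named after its letters, and a single arm of the estrogen response element (AGGTCA). The fourth is the cyclic AMP response element, or CRE, whose letters are TGACGTCA. ELK3, at chr12:96194125-96194374 on the plus strand, encodes an ETS-family transcription factor and had the strongest region of its kind at a gene start. WIPF2, at chr17:40219054-40219303 on the plus strand, encodes a WASP-interacting actin regulator. CCNG2, at chr4:77156957-77157206 on the plus strand, is the one gene of the list lowered by estrogen with such a region at its start. TXNL1, at chr18:56638593-56638842 on the minus strand, a thioredoxin-like protein gene, and RAP1B, at chr12:68610649-68610898 on the plus strand, a small GTPase gene, were added after their values were seen because each holds a CRE.
ELK3: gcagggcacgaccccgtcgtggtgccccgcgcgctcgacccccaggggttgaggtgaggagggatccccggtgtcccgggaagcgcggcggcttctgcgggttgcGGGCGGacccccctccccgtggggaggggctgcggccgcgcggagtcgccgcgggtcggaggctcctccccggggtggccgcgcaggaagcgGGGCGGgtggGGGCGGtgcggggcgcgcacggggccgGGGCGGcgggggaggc
WIPF2: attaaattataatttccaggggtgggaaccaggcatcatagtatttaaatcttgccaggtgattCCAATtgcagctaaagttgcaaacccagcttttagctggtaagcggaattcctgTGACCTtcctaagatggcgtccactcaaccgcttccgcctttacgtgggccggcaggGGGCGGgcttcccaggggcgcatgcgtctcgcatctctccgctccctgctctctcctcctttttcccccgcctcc
CCNG2: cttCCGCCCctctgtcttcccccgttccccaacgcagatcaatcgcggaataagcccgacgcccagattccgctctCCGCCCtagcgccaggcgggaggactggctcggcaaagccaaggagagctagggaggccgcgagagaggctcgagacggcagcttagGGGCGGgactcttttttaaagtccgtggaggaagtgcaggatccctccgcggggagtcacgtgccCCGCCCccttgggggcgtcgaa
TXNL1: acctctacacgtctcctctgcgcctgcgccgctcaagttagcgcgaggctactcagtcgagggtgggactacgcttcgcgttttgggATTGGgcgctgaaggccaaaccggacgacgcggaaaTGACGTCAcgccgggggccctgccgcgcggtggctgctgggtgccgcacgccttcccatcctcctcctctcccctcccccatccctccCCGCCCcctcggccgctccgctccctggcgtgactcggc
RAP1B: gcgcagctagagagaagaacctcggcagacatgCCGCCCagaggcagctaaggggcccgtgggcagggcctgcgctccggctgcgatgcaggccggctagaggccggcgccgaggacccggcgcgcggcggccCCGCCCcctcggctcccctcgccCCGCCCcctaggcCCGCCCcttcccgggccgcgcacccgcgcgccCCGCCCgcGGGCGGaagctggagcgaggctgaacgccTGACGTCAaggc
The ELK3 and CCNG2 stretches hold 4 GC boxes each and RAP1B holds 6. WIPF2 holds 1 GC box, 1 CCAAT box and 1 arm, and TXNL1 holds 1 GC box, 1 CCAAT box and 1 CRE. The region covers all 250 bases of the CCNG2, TXNL1 and RAP1B stretches, but only 125 of ELK3 and 23 of WIPF2. The first GC box of ELK3 and all marked letters of WIPF2 thus lie outside the region. The strongest points (summits) of the ELK3, WIPF2 and RAP1B regions also lie outside the printed bases. None of the 5 holds the whole palindromic estrogen response element. The stretch before DVL2, next in the planned order after CCNG2, is not printed. It holds 1 GC box, 1 CCAAT box and no CRE. A match is a description of letters and not a shown binding site.

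At the ELK3 start, the summit lay 37 bp from the annotated start, with 21 summit fragments in WT-Dox and 20 in K303R-Dox, and the nearest peak of any list made with E2 was 20740 bp away. A summit fragment count is the number of sequenced fragments stacked at the top of a peak, recovered from the deposited fold enrichment and p-value. The WIPF2 region had 14 fragments in WT-Dox and 17 in Y537S-Dox, 77 bp from the start. The CCNG2 region had 18 fragments in WT-Dox and 13 in Y537S-Dox, 214 bp from the start, but a peak of a DoxE2 list lay only 158 bp away. Both regions were listed in WT and in Y537S and not in K303R. The TXNL1 region was listed in all 3 receptor lines without E2, with 12 fragments in WT, 12 in Y537S and 16 in K303R. The RAP1B region was also listed in all 3, with 9, 9 and 12 fragments in the same order. All 5 are small stacks of reads, as were most of the 3888 regions.

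By receptor, 1552 of the regions were listed in WT-Dox and K303R-Dox, 1390 in WT-Dox and Y537S-Dox, 529 in Y537S-Dox and K303R-Dox, and 417 in all 3. WT-Dox held 3359 of them, K303R-Dox held 2498 and Y537S-Dox held 2336. The same rule with the treatments exchanged gave 2575 regions found only with E2, 1.52% of all regions. The ratio of the 2 numbers was 1.51. The WT list without E2 had 121641 peaks and the longest with E2 had 117710. When all 6 lists were shortened to their 102848 strongest peaks, the ratio was 1.12. It was 1.17 without the WT line, 1.08 without the Y537S line and 1.57 without the K303R line. The excess over the exchanged rule thus moves with list length and with the lines used, and with 1 library per group it has no replicate check.

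**Figure D1:**
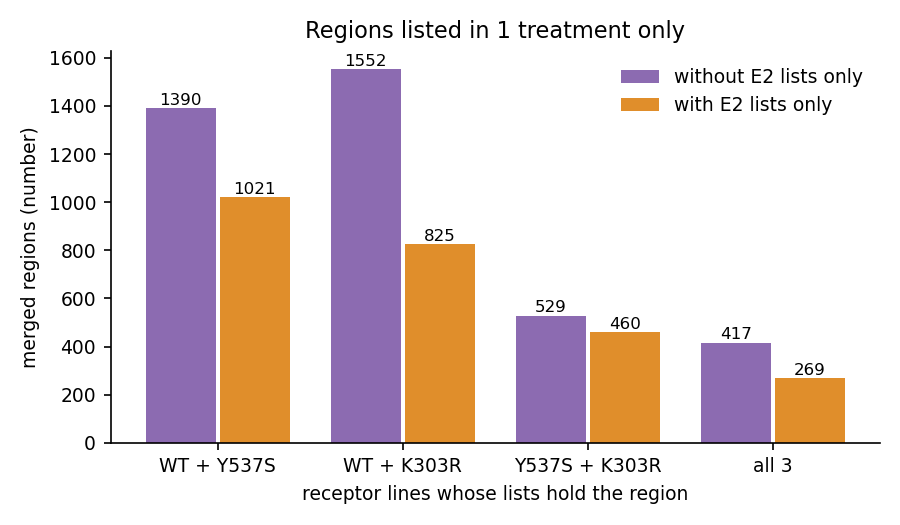
Number of merged regions (vertical axis) listed in the receptor lines on the horizontal axis, for lists made without E2 only (purple) and with E2 only (orange). WT with K303R is the most frequent pattern without E2, 1552 regions against 825 with E2, and 417 regions were listed in all 3 lines without E2 against 269 with E2.

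The names given to peaks hold what looks like a date, the same for WT and K303R and another for Y537S. Within the shared name, the pattern of WT with K303R had 1552 regions without E2 and 825 with E2. Across names, WT with Y537S had 1390 and 1021, and Y537S with K303R had 529 and 460. More regions were listed without E2 in each of these patterns, by the widest margin within the shared name.

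The regions were weak. Their median summit count was 12 fragments in WT-Dox (middle 50% 10 to 15, highest 57), 10 in Y537S-Dox (8 to 12, highest 50) and 11 in K303R-Dox (10 to 14, highest 72). Over all merged regions with a peak in the list the medians were 27, 26 and 24, and over regions in all 6 lists they were 54, 50 and 38. The authors' fold enrichment had medians of 5.09, 5.03 and 5.01 in the 3 lists, and the −log10 p-value medians of 8.17, 7.0 and 7.70. Regions found only with E2 had medians of 12 fragments in WT-DoxE2, 13 in Y537S-DoxE2 and 12 in K303R-DoxE2. Their highest counts, 100, 94 and 137, and their −log10 p medians of 8.39, 8.55 and 8.54 were above those without E2. A highest count of 30 or more was reached by 244 of these 2575 regions, against 133 of the 3888 found only without E2. Regions just outside the rule, with peaks in 2 or 3 Dox lists and in 1 DoxE2 list, numbered 9458 and had 13, 11 and 13 fragments. The 21550 regions with a peak in 1 Dox list and no other had 11, 9 and 11. Median width was 358 bp, against 453 bp over all regions and 322 bp for regions found only with E2.

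**Figure D2:**
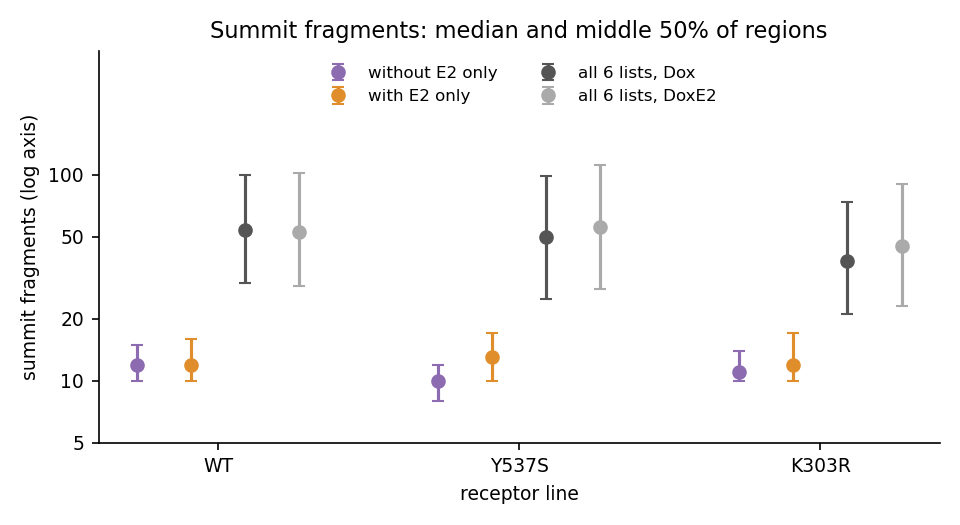
Summit fragments (vertical axis, log scale) in each receptor line, as the median over regions (point) and the middle 50% (bar), for regions found only without E2 (in Dox lists), regions found only with E2 (in DoxE2 lists) and regions in all 6 lists. Both treatment-specific sets have medians of 10 to 13 fragments, below the 38 to 56 of regions in all 6 lists.

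A list stops at a threshold, so absence from a DoxE2 list is not absence of binding. The weakest listed peaks had 5 or 6 fragments and a −log10 p of 3.05 to 3.25. The largest count that could have gone unlisted with E2 was set from the local background of each region without E2. That background was scaled by the lowest backgrounds of the libraries, and the weakest listed −log10 p stood for the threshold. The local background with E2 is not known at an unlisted region, so the true limit could differ. The largest unlisted count had a median of 5 fragments. The median upper limit that this sets on the level with E2 was 0.476 of the level without E2 in WT, 0.491 in Y537S and 0.533 in K303R. The counting interval (95%, covering counting error only) put the Dox level above that limit for 432 of 3359 regions in WT (12.9%), 224 of 2318 with a recovered count in Y537S (9.66%) and 203 of 2498 in K303R (8.13%). Over all regions with a Dox peak and no DoxE2 peak of the same line, the shares were 14.1%, 12.7% and 8.83%. The regions described here thus passed no more often than that background. The Dox peaks and the absences with E2 used here also chose both sets, so these shares are a description with no test. In 3122 of 3888 regions (80.3%) the level passed the limit in no line, in 676 it passed in 1 line, in 87 in 2 lines and in 3 in all 3 lines. For most of the regions, a drop with E2 was not detectable at this depth.

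The 3 regions that passed in all lines lie in long genes. The region in AUTS2 (chr7:69815832-69816126), a gene of brain development, had 51 fragments in WT-Dox, 32 in Y537S-Dox and 35 in K303R-Dox. The region in CPEB3 (chr10:92121749-92122104), which encodes an mRNA-binding protein, had 54, 31 and 56. The region in ANKRD11 (chr16:89397936-89398221), a chromatin regulator gene, and in the overlapping LOC128462377, had 45, 50 and 46. These counts are high in all 3 lines without E2. The local background there was high as well, for ANKRD11 12.2, 12.3 and 10.6 fragments, against a lowest background of 1.21, 0.987 and 1.19 in the same libraries. A local background of at least 2 times the lowest of its library was present at 593 of the regions (15.3%), and at all 54 regions with 30 or more fragments in every Dox list that holds them. A DoxE2 peak lay 139 bp from the ANKRD11 region and 894 bp from the CPEB3 region.

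Among regions listed in all 3 Dox lists, several stood on a low background and several kb from any DoxE2 peak. Over all regions of the set on a low background, the median distance to a DoxE2 peak was 6867 bp. The region in the lncRNA gene BPESC1 (chr3:139113621-139114127) had 15 fragments in WT-Dox, 16 in Y537S-Dox and 18 in K303R-Dox, 6655 bp from the nearest DoxE2 peak. The region 60008 bp from ZC3H12C (chr11:110033129-110033584), a gene of an RNA-degrading zinc finger family, had 13, 19 and 16 fragments, 8758 bp from a DoxE2 peak. The region near the lncRNA gene LOC105378813 (chr1:81044620-81045077) had 15, 13 and 21, 9829 bp away. These regions were chosen for a high −log10 p in every Dox list, which favours like counts in the 3 lines. Other regions listed in all 3 Dox lists stood on a raised background in at least 1 library. These were at SMAD3-DT, with 32, 25 and 26 fragments, and FSTL3, which encodes a secreted inhibitor of activin, with 27, 18 and 24. SUSD6 held one with 39, 21 and 28 on backgrounds of 6.59, 3.99 and 5.56. The FSTL3 region lay 168 bp from a DoxE2 peak and the SUSD6 region 360 bp from one.

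In each pair of Dox lists, the 4 most significant regions were taken, which were in or near 6 lncRNA genes and 6 protein-coding genes. The region 9790 bp from NFIL3 (chr9:91493093-91493468), a leucine zipper repressor gene, had 23 fragments in WT-Dox and 19 in Y537S-Dox. The region in VDR (chr12:47881761-47882089), the vitamin D receptor gene, had 43 in WT-Dox and 49 in K303R-Dox on backgrounds of 9.90 and 8.84. The region in CTBP2 (chr10:125144665-125145169), a corepressor gene, had 19 in Y537S-Dox and 15 in K303R-Dox. Of these, NFIL3 was on the lowest background of both libraries, and VDR was on a raised one. The region in VCL (chr10:74071225-74071558), which encodes the focal adhesion protein vinculin, had 15 and 14 in Y537S-Dox and K303R-Dox, and that in SLFN13 (chr17:35448396-35449093), a gene of a tRNA-cleaving protein, had 13 and 22.

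Distance to the nearest DoxE2 peak had a median of 5368 bp, and for 442 regions (11.4%) it was at most 500 bp. Regions found only with E2 lay closer to a Dox peak, with a median of 2989 bp and 13.0% within 500 bp. Among the regions found only without E2, those on a raised local background had a median distance to a DoxE2 peak of 1294 bp. For those at gene starts the median was 2457 bp, and 28.0% lay within 500 bp of a DoxE2 peak. Part of the set thus lies beside a peak listed with E2, and the exchanged set likewise lies in part beside Dox peaks.

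Position was not used by the rule. Of the 3690 regions outside chromosome 8, which the promoter table does not cover, 486 (13.2%, exact 95% interval 12.1 to 14.3) had their summit within 1 kb of an annotated protein-coding gene start. Starts of lncRNA genes were not counted, here or wherever regions near a start are given. The share was 6.72% over all merged regions, 5.53% (4.66 to 6.51) for regions found only with E2, and 5.17% for other regions in 2 or 3 lists. Seen from the other side, 4.52% of regions near a start were found only without E2, against 2.15% of regions farther away. Among the regions listed in all 3 Dox lists the share was 24.2% (19.99 to 28.7), against 7.25% in those listed in all 3 DoxE2 lists. It was 8.50% for WT with Y537S, 12.2% for WT with K303R and 19.9% for Y537S with K303R. The intervals for the sets without and with E2 do not overlap, but regions of the same libraries are not replicates and no test was made.

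The excess was closest to the start. Within 250 bp lay 7.80% of the regions found only without E2, 2.13% of those found only with E2 and 3.36% of all. Between 250 bp and 1 kb the shares were 5.37%, 3.40% and 3.36%. Beyond 100 kb they were 37.2%, 37.5% and 38.4%. Most of the set thus lay far from a protein-coding gene start, as in the other sets.

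The share near starts also moved with the number of DoxE2 lists that hold a region. Of regions in all 3 Dox lists, 24.2% were near a start when no DoxE2 list held them, 16.1% with 1, 9.82% with 2 and 7.67% with all 3. Of regions in 2 Dox lists the shares were 11.9%, 7.02%, 4.10% and 4.74%. With the treatments exchanged, the shares for regions in all 3 DoxE2 lists were 7.25% with no Dox list, 4.65% with 1, 4.74% with 2 and 7.67% with 3. Of regions in no Dox list, 5.13% were near a start with 1 DoxE2 list, 5.32% with 2 and 7.25% (4.42 to 11.1) with 3.

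**Figure D3:**
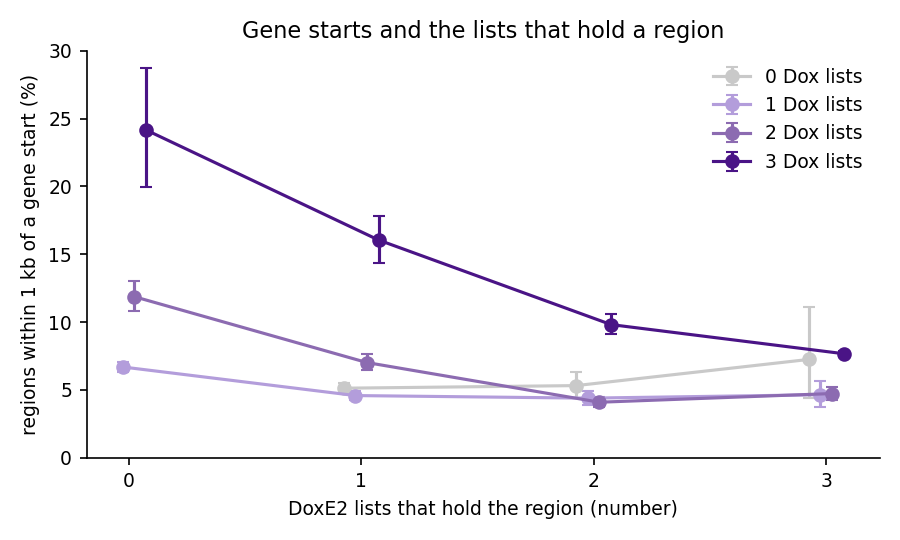
Share of merged regions within 1 kb of a gene start (vertical axis, percent, chromosome 8 left out) by the number of DoxE2 lists (horizontal axis) and Dox lists (lines) that hold the region, with exact 95% binomial intervals. The share is highest, 24.2%, for regions in 3 Dox lists and no DoxE2 list, and 7.25% for the opposite corner. Only starts of protein-coding genes were counted.

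The strength of a peak moved with the share. Among regions whose highest summit count was 4 to 9 fragments, 16.5% of those found only without E2 and 10.6% of those found only with E2 were near a start. From 10 to 14 fragments the shares were 12.6% and 5.26%, from 15 to 19 they were 14% and 5.76%, from 20 to 29 they were 12.7% and 5.42%, and from 30 up 9.45% and 4.27%. At each level the share without E2 was the higher. Among the 962 regions outside chromosome 8 whose Dox peaks all had a −log10 p of at least 8, the share was 7.69%, close to the 6.72% over all merged regions. When the peaks that must be present had to reach that value in either treatment, the share was 8.82% without E2 and 3.81% with E2. With the members redefined, the share was 18.3% without the WT line, 17.2% without the Y537S line and 12.8% without the K303R line. Regions at starts were not confined to raised background, since those on a low background had 12.2% near a start.

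Of the 94 regions at gene starts listed in all 3 Dox lists, the most significant were named after their values were seen. They were taken by the lowest −log10 p over their Dox peaks and had 10 to 26 fragments. Others had fewer, such as RAP1B with 9 in WT-Dox and 9 in Y537S-Dox. At SCIN, which encodes an actin-severing protein, the counts were 12 in WT-Dox, 11 in Y537S-Dox and 20 in K303R-Dox, 13220 bp from a DoxE2 peak. At TRAIP, a ubiquitin ligase gene of the DNA damage response, they were 11, 14 and 13, 7388 bp away. At NGDN they were 12, 18 and 11, 7667 bp away. The highest count was in K303R at SCIN and in Y537S at TRAIP and NGDN. At GTF2A2, which encodes a subunit of the general transcription factor TFIIA, they were 12, 10 and 13. At SPRED1, an inhibitor of Ras signalling, they were 23, 13 and 23, and at CHD3, a chromatin remodeller, 17, 12 and 21. DoxE2 peaks lay 630 bp from the CHD3 region and 370 bp from the SPHK2 region, which had 13, 15 and 15.

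Each receptor line was also taken alone, with regions listed in its own Dox or DoxE2 list and not in the other, a wider set that contains the regions above. In WT 8.35% of the Dox regions and 5.00% of the DoxE2 regions were near a start, in Y537S 7.96% and 7.02%, and in K303R 10.9% and 5.13%. The Dox share was higher in all 3 lines and least so in Y537S. Each region found only without E2 is in the Dox sets of 2 or 3 lines, so the agreement of the 3 lines is partly that of the same regions. Over whole lists the share of peaks near a start was 7.23% without and 6.70% with E2 in WT, 7.54% and 7.37% in Y537S, and 8.55% and 7.51% in K303R. An exact 2-sided sign-flip test over the 3 lines gave p = 0.25 for each of these, the smallest p that 3 lines allow. Among peaks of 20 fragments or fewer, the shares were 9.38% and 8.99% in WT, 9.37% and 9.51% in Y537S, and 10.7% and 9.82% in K303R. There Y537S went the other way (exact p = 0.5). The lowest local background, which moves with depth, was 1.21 and 1.15 fragments in WT, 0.987 and 1.12 in Y537S, and 1.19 and 1.12 in K303R without and with E2, and its part in the result was not tested.

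Regions of all 6 lists were not chosen by the rule, and their levels at gene starts could be compared with E2 directly. At the 1860 such regions within 1 kb of a start and with a mean of 20 to 50 fragments, out of 24064, the median log2 ratio of the level with E2 to that without was set against the median over all. The shift was −0.10 in WT, −0.03 in Y537S and −0.15 in K303R on the log2 scale, with a mean of −0.09 over the lines. It was −0.08, −0.04 and −0.18 under 20 fragments and −0.03, −0.01 and −0.06 from 50 up. It was downward in 3 of 3 lines (exact 2-sided sign-flip test, p = 0.25, the smallest possible), small in size, and smallest in Y537S. Fold enrichment at these 1860 regions had medians of 8.73 without and 8.71 with E2 in WT, 9.45 and 9.87 in Y537S, and 7.38 and 8.29 in K303R. At the other 22204 regions they were 11.0 and 11.2, 10.9 and 11.3, and 8.21 and 9.55. In Y537S and K303R the median fold was thus higher with E2 at both kinds of region.

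**Figure D4:**
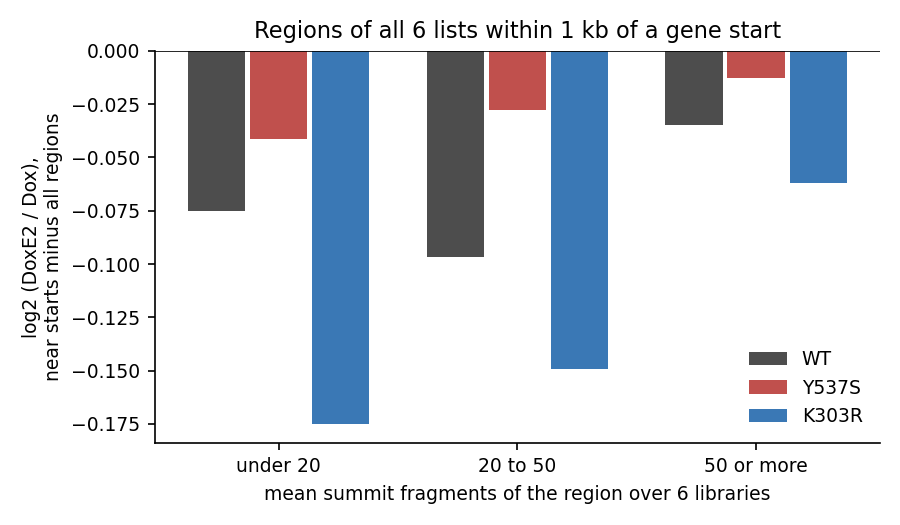
Shift of the log2 ratio of summit fragments with E2 to without E2 (vertical axis) at regions of all 6 lists within 1 kb of a gene start, relative to all regions of the same depth class (horizontal axis, mean fragments over 6 libraries), in each receptor line. All 9 bars point down, from −0.01 to −0.18, and each is 1 pair of libraries with no replicate. Only starts of protein-coding genes were counted.

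Well-covered regions near those found only without E2 were compared in the same way. The 2658 regions of all 6 lists within 25 kb of one, with at least 50 fragments, had a log2 shift with E2 of −0.02 in WT, −0.003 in Y537S and −0.04 in K303R. The 2706 regions near those found only with E2 had shifts of 0.02, 0.01 and 0.05. Each was the same way in 3 of 3 lines (exact sign-flip p = 0.25, the smallest possible), and all were under 0.1. Near the regions found only without E2, the Y537S shift was 0.004 within 10 kb and 0.0004 with no minimum depth, so that its sign changed (exact p = 0.5 in both).

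Sequence was read for promoter windows of 300 bases, from 250 before to 50 after a start. The regions overlapped 539 windows of 481 genes, 410 of which do not overlap each other. Their median GC content was 65.3% with 26 CpG, against 57.3% and 11 over all windows, and 65.0% and 25 over windows overlapped by any merged region. In base composition they were thus close to other bound promoters. The whole palindromic estrogen response element was in 0 of the 410 windows (exact upper limit 0.896%), against 0.121% of 9891 windows with any region and 0.0551% of all 29020. The single arm AGGTCA, which is also part of that element, was in 10.0% (7.27 to 13.3), against 14.4% with any region, 16.5% with regions of all 6 lists and 14.2% of all windows. Windows of regions found only with E2 had the arm in 16.5% of 85 (9.31 to 26.1). Letters recognised by ERα were thus no more frequent in these windows.

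Motifs of general promoter factors were searched as well, some of them chosen after seeing the data. The CRE TGACGTCA, the site of CREB and ATF proteins, was in 6.34% of the windows (4.18 to 9.15), against 3.07% with any region, 1.69% of all windows and 1.18% (0.0298 to 6.38) for regions found only with E2. The GC box GGGCGG was in 71.0% (66.3 to 75.3), against 64.7% and 42.0% with any region and over all. For regions found only with E2 it was in 72.9% (62.2 to 82.0). The ETS motif CCGGAAG was in 19.8% (16.0 to 23.9), against 16.7% and 8.96%. The CCAAT box was in 36.8%, against 33.1% and 34.3%, and the TATA box TATAAA in 5.12%, against 6.10% and 12.5%. The forkhead motif TGTTTAC, bound by FOXA1, was in 1.46% (0.539 to 3.16), against 3.16% and 3.62%, and the AP-1 motif TGANTCA in 5.12%, against 6.75% and 8.19%. Both strands were searched. For 4 of the 15 motifs searched, the share over windows with any region lay outside the interval of these windows. Windows with any region include these windows. Regions of the same libraries are not replicates, so the intervals are descriptive and no test was made. Compared with windows of any region, the GC box and the CRE, the latter chosen after seeing the data, were more frequent here. The single AGGTCA arm and, by a narrow margin, the forkhead motif TGTTTAC were less frequent. A second forkhead form, TGTTTGC, was in 2.44% (1.18 to 4.44), an interval that holds the 3.32% with any region. The GC box was no less frequent in windows of regions found only with E2.

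Genes of 11 lists were counted when a region lay in the gene or within 25 kb of it. Of all protein-coding genes 18% had such a region and 12% had a region found only with E2 as near. Of the 237 listed genes 60 (25.3%) had one found only without E2. Of genes induced by estrogen 10 of 44 were near one, among them PGR, the progesterone receptor gene, and CA12, and 9 of 44 were near a region found only with E2, among them TFF1 and MYC. Of genes lowered by estrogen the numbers were 4 of 10 (CCNG2, EGFR, PIK3IP1 and YPEL3) and 0 of 10. Of nuclear receptor coregulator genes they were 8 of 17 and 4 of 17. The lists are short and no test was made. Within 10 kb, 1 of 10 genes lowered by estrogen (CCNG2) had a region found only without E2, 5 of 17 coregulator genes and 4 of 20 immune genes, against 13.2% of all protein-coding genes. Of genes of the androgen receptor and apocrine list 7 of 28 were near a region found only without E2, of luminal and pioneer factor genes 4 of 24, and of receptor tyrosine kinase and PI3K genes 5 of 18. Among lists for other cell types, 8 of 20 immune, 6 of 20 basal and mesenchymal, 4 of 19 neuronal and 1 of 19 hepatocyte genes had one, and of housekeeping genes 3 of 18. Immune genes thus had as high a share as genes lowered by estrogen.

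Single listed loci were weak. The EGFR region, 10263 bp from this growth factor receptor gene, had 12 fragments in WT-Dox and 8 in Y537S-Dox. The region nearest PIK3IP1, which encodes a PI3K inhibitor, lay in LIMK2 with 12 and 10. The CREBBP region, in a histone acetyltransferase and coactivator gene, had 12 in WT-Dox and 13 in K303R-Dox, and that nearest HDAC3, a corepressor deacetylase gene, lay at the RELL2 start with 15 and 12. None of these passed the limit for an unlisted level with E2. The region 3999 bp from PDZK1, an estrogen-induced scaffold gene, had 40 in WT-Dox and 44 in K303R-Dox on backgrounds of 13.8 and 12.4. The ERBB4 region, in a receptor tyrosine kinase gene, had 15 in WT-Dox and 13 in Y537S-Dox. Regions within 1 kb of a start were present for 473 of 15100 protein-coding genes in the promoter table. Of the listed genes these were CCNG2, PPIA, with 11, 10 and 11 fragments in the 3 Dox lists and a DoxE2 peak 102 bp away, and RPL13A, with 11, 10 and 10.

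By chromosome, the share of merged regions found only without E2 ran from 1.56% (exact interval 1.18 to 2.03) on chromosome 22 to 2.89% (2.57 to 3.25) on chromosome 4. It was 2.80% on chromosome 19 and 2.76% on chromosome 12. Chromosome 22 was the one autosome on which regions found only with E2 were more numerous, 63 against 56.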

How the data were processed

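ERα ChIP-seq peak lists of 6 libraries were used, 1 per group by sample title. Per the submitters' processing notes, Bowtie2, SAMtools, Picard, bedtools, MACS2 and build hg38 were used, and the versions, the control library and the threshold were not given in the sources used here. The lists have, as deposited by the authors, a fold enrichment (ratio to local background), a −log10 p-value and −log10 q-value per peak, and a score that was not used. The fold and −log10 p were computed by the authors for each library separately. Library totals are not in the lists, so depth is known only through the summit counts and the lowest local background.

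Fragments at each summit were recovered from the deposited fold, with its pseudocount of 1, and the Poisson p-value, matched to within 0.01% for 99.8% to 100.0% of peaks. On simulated peaks 100.0% were recovered. Peaks without a match kept their place in the lists and have no count. Log2 ratios used fragments plus 0.5 and were centred on the median over all regions of the same depth. Python 3.11.15, pandas 2.3.3, NumPy 2.4.6 and SciPy 1.17.1 were used.

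The members, gene lists and motifs were chosen with earlier results of these data known. No genome was used here, so motifs were searched in promoter windows of the RefSeq table and not at summits, a change from the plan, and windows inside protein-coding genes were not printed. The table lacks some genes. All 242 listed genes were matched by symbol, and 237 lie on chromosomes 1 to 22. Regions described singly were, by the lowest −log10 p over their Dox peaks, the 12 highest in all 3 Dox lists, the 4 highest per pair of lists, 3 per gene list and 4 at promoter windows, and the text gives a part of them. Each takes the name of the gene that holds or is nearest its summit. Added after their values were seen were the most significant regions at gene starts in all 3 Dox lists. Regions of the same library share its depth and handling, and nothing says that the libraries came from separate cultures.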

Additional observations from a re-analysis of the deposited data

Results flagged for a closer look

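Chromosome X was outside the rule. On it, 144 of 5773 merged regions were found only without E2, against 66 found only with E2, which is 2.49% and 1.14%. This signal is in data that the comparisons above do not use.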

How the results depend on the processing

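The number of regions found only without E2 was 1158 when the Dox peaks had to reach a −log10 p of 8, and 1943 without the WT line. In 7 other settings it was 2655 to 4032. Its ratio to regions found only with E2 was 1.12 with lists of equal length, 1.11 with a −log10 p of 8 in every list, 1.12 with it in the lists that must hold the region, 1.63 with no peak of the other treatment within 1000 bp, 1.17 without the WT line and 1.08 without the Y537S line. The share near a gene start was 8.82% with a −log10 p of 8 in the lists that must hold the region, 7.69% among members with such Dox peaks, 9.90% with no DoxE2 peak within 1000 bp, 18.3% without WT, 17.2% without Y537S, 18.4% within 5 kb (12.7% of all regions) and 17.0% within 1 kb of either gene end (11.4% of all). Listed genes numbered 114 within 100 kb (48.1%, against 37.7% of all protein-coding genes) and 40 within 10 kb (16.9%, against 13.2%). The cause of these moves was not tested. The mean log2 shift at regions of all 6 lists kept its direction in the settings tried, from −0.12 to −0.04 near starts and from −0.02 to −0.01 near members, where the shift in Y537S changed sign in 2 settings; scaling by the lowest background leaves it the same by construction. Some settings were chosen after seeing the data, and motifs in wider summit windows were not run. Counts of about 12 fragments limit what can be told of a region.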
